A study of Sus scrofa with 36 samples.

Results

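Mammary gland gene expression after removal of the ovaries combined with bromocriptine was compared with that of intact, saline-treated pigs. The comparison was between 8 of the 36 arrays of the series, 4 from each group, and was described across all genes. Standard errors and p-values rest on a spread estimated from all 36 arrays of the 9 groups, unless the 8 arrays alone are named. All animals were female peripubertal Yucatan miniature pigs, 5 months old, and each array held total RNA of the mammary gland of 1 animal. The 4 sham-operated pigs underwent surgery that spared the ovaries and were given saline over 13 days. The other 4 pigs were ovariectomized and, starting a day later, were given bromocriptine for 8 days and then again for the last 5 days, with no estrogen, progesterone or haloperidol. They are called treated animals here. BrdU, a label of cells that copy their DNA, was injected 24 h before the end in both groups. The groups differ in surgery and in drug at once, so the part of the ovaries and the part of bromocriptine in any difference cannot be told apart. Animals carry letters from A to D within each group. The labels do not state any link between animals of the same letter.

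The ovary supplies estrogen and progesterone. In the mammary epithelium estrogen acts through its receptor on ligands such as amphiregulin to drive growth of the ducts, and progesterone acts through its own receptor on side branching. Prolactin, secreted by the pituitary under inhibition by dopamine, acts through JAK2 and STAT5 on milk protein genes and alveolar development. Bromocriptine is a dopamine agonist that lowers prolactin secretion, and it was given here to animals without ovaries. Hormone levels in blood were not analysed here.

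The 36 arrays had medians of 7.83 to 7.91 on the log2 scale. Epithelial markers were present in both groups: KRT8, a keratin of luminal cells, had values of 12.97, 12.75, 12.75 and 12.94 in sham A to D and 11.32, 12.53, 12.56 and 12.77 in treated A to D. Treated A was the lowest of the 8 for KRT8. Treated A also stood apart in a score of 29 skeletal muscle genes, the mean of their values after each gene was centred on the 8 arrays. That score was 5.76 in treated A and between -1.296 and -0.38 in the other 7 animals. Scores of 25 milk genes were 0.76, 0.38, 0.59 and 0.88 in sham A to D, and -1.90, 1.27, -1.35 and -0.62 in treated A to D. Treated B was thus the highest of all 8 animals in milk transcripts while the other 3 treated animals were below every sham animal. Results are therefore given with a statement of what changed without treated A, treated B or any other single array. In whole tissue, fewer cells of a type and less RNA per cell cannot be told apart, and this holds for every gene below.

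With all arrays, lower expression was the more frequent call, and this balance turned in 2 other fits. With limma and an adjusted p under 0.05 as the threshold for a call, 325 of 20792 probe sets (1.56%) were higher and 545 (2.62%) were lower in treated than in sham animals. With each gene taken as its probe set of highest mean, 57 of 6360 genes (0.896%) were called higher and 210 (3.3%) lower. The median change was 1.06 among the genes called higher and -1.33 among those called lower, against -0.04 over all genes. Of the genes called lower, 16 fell by more than 8-fold, and the largest called rise was 2.06 on the log2 scale, each by the probe set of highest mean. The size of the higher group depended on single animals: 672 probe sets were called higher and 570 lower without sham C, so that higher calls were then the more frequent (54.1%). With array weights they were so too, at 1534 higher and 1175 lower. The count of higher calls was 552 without treated D and 81 without sham D. It was 131 without sham A, 205 without sham B, 248 without treated A, 135 without treated B and 139 without treated C. Calls of lower expression ranged from 342 without treated C and 343 without sham D to 724 without treated D. Without both treated A and treated B, 79 probe sets were higher and 265 lower. Every treated animal was above every sham animal in 185 genes (2.91%) and below every sham animal in 427 (6.71%). Of the genes called, 40 of the 57 higher and 191 of the 210 lower ones had groups that did not overlap. The treated mean of 51 of the genes called lower, and the sham mean of 11 of those called higher, was under the arrays' lower quartiles (5.90 to 6.09). At such dim signals the size of a fold is uncertain, and this holds for many of the largest falls below, HAPLN1, NEK2, MCM2 and PGR among them.

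**Figure D1:**
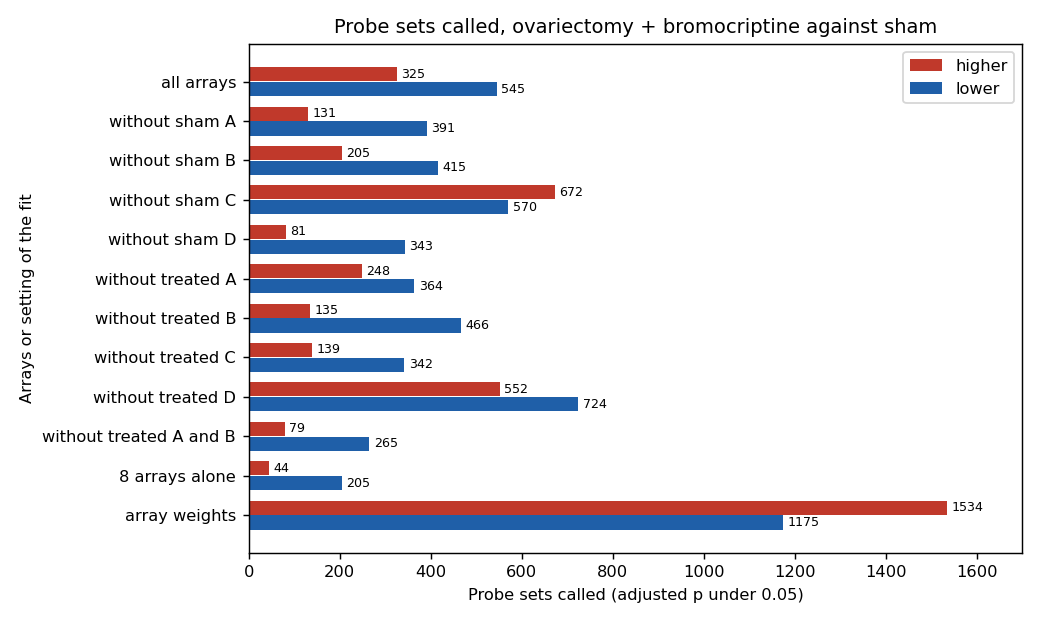
Number of probe sets called higher (red) and lower (blue) in the treated group, on the x axis, when all arrays were used and when single arrays were left out, when treated A and B were left out, with the 8 arrays alone and with array weights. The lower calls range from 205 to 1175 and the higher calls from 44 to 1534.

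Genes that copy DNA were lower in the treated animals. Of 33 measured DNA replication genes, 15 were called lower and 0 higher, against 3.3% of all genes called lower, and the median change of the 33 was -0.79. At an unadjusted p under 0.05 in limma, 22 of the 33 were lower and 0 higher, against 11.6% and 7.41% of all genes. MCM2, a subunit of the replicative helicase, had values of 8.54, 8.92, 7.88 and 8.65 in sham A to D and 5.48, 6.16, 4.55 and 5.87 in treated A to D. The groups did not overlap and treated C was the lowest. MCM2 fell by an estimated 7.90-fold, with a treated mean of 5.516 below that quartile (-2.98 ± 0.37, adjusted p = 1.84e-05; changes are on the log2 scale with their standard error, n = 4 a group). The other MCM2 probe sets gave -2.67, which was called, and -0.60, which was not (adjusted p = 0.206). RRM2, the regulated subunit of ribonucleotide reductase that supplies deoxynucleotides, had values of 9.13, 10.33, 9.92 and 9.65 in sham A to D and 6.16, 7.31, 5.15 and 5.25 in treated A to D. Each treated animal was below each sham animal, treated B least so, and RRM2 fell 13.8-fold (-3.79 ± 0.57, adjusted p = 0.000146). ORC1, a subunit of the origin recognition complex, ranged from 7.04 to 7.71 in sham and from 4.88 to 5.11 in treated animals, with a change of -2.36 ± 0.41, adjusted p = 0.000727. ASF1B, a histone chaperone of replicating cells, ranged from 6.403 to 7.78 in sham and from 2.96 to 5.19 in treated animals, with a change of -3.17 ± 0.52, adjusted p = 0.00039. A second and much dimmer ASF1B probe set gave 0.23, so the fall of ASF1B rests on 1 probe set. PCLAF, which binds the sliding clamp and was outside the list, had values of 8.71, 10.04, 8.05 and 9.41 in sham A to D and 5.99, 7.19, 4.02 and 4.29 in treated A to D. PCLAF did not overlap between groups and changed by -3.68 ± 0.64, adjusted p = 0.00073.

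The list held its direction but not its count when animals were left out. MCM2, MCM5, RRM2, DNMT1, ORC1 and ASF1B were called in each of the 8 fits that left out 1 array. The number called fell from 15 to 6 without sham B, to 7 without treated C and to 8 without treated A and B together. It was 10 without treated A and 12 without treated B. MCM5, another helicase subunit, changed by -2.31 ± 0.32, adjusted p = 4.9e-05, and DNMT1, which copies DNA methylation to the new strand, by -1.33 ± 0.24, adjusted p = 0.00103. Of the other DNMT1 probe sets, 1 was called at -1.21, while those at -0.50 and -0.37 were not. TYMS, thymidylate synthase, ranged from 5.36 to 6.697 in sham and from 3.74 to 4.49 in treated animals and was called (-1.85 ± 0.51, adjusted p = 0.0328), a call lost without sham B or C or treated A, C or D (adjusted p = 0.0549 to 0.0979). A second TYMS probe set gave -2.43, adjusted p = 0.00401. PCNA, the sliding clamp, changed by -0.9998 ± 0.25, adjusted p = 0.0172, a call lost without sham B (adjusted p = 0.0664). RRM1, the constant subunit of ribonucleotide reductase, changed by -0.55 ± 0.16, adjusted p = 0.0417, and that call was lost on leaving out any 1 of the 8 arrays (adjusted p = 0.0512 to 0.136). The change of RRM1 was smaller than that of RRM2 on the same scale, a contrast that was not tested. POLE2, at -1.20, and MCM4, at -0.99, did not pass. The only member with a positive change was POLD3, at 0.00.

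**Figure D2:**
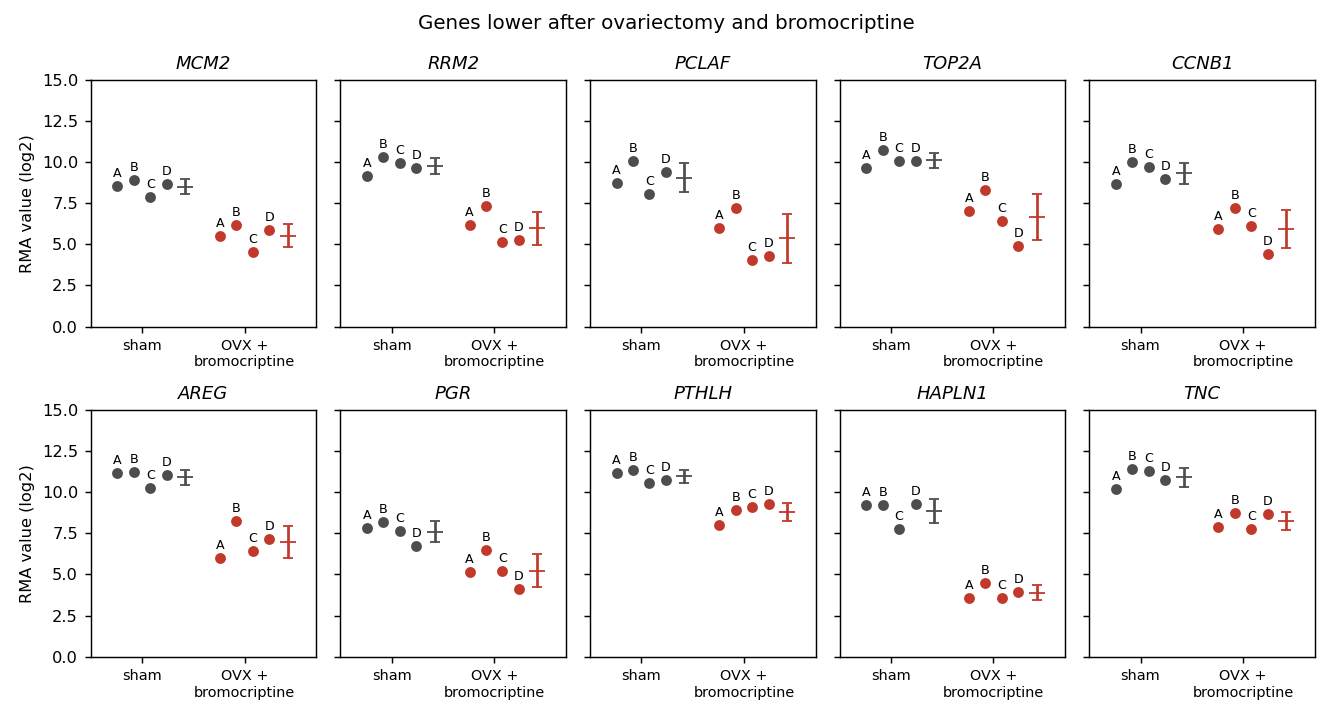
RMA value on the log2 scale (y axis) of 10 genes in each animal (points, with the animal's letter) of the sham and the treated group (x axis), with the group mean and SD (bars, n = 4). In each of the 10 panels all 4 treated animals lie below all 4 sham animals. Sham B and treated B are both the highest of their groups for MCM2, RRM2, PCLAF, TOP2A, CCNB1, AREG, PGR and TNC. This does not hold for PTHLH and HAPLN1.

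Genes of mitosis gave more calls than any other of the 43 lists. Of 47 measured mitosis and cyclin genes, 29 were called lower and 0 higher (3.3% of all genes lower, 0.896% higher), with a median change of -1.51, and 37 lower and 0 higher at an unadjusted p under 0.05. TOP2A, the topoisomerase that separates chromosomes, had values of 9.61, 10.71, 10.05 and 10.05 in sham A to D and 7.01, 8.27, 6.41 and 4.89 in treated A to D. The groups did not overlap, and treated B was the highest and treated D the lowest treated animal. TOP2A fell 10.99-fold (-3.46 ± 0.64, adjusted p = 0.00147). CCNB1, cyclin B1, which drives entry into mitosis, had values of 8.64, 9.98, 9.67 and 8.95 in sham A to D and 5.93, 7.22, 6.08 and 4.41 in treated A to D. Again each treated animal was below each sham animal, and CCNB1 fell 10.5-fold (-3.398 ± 0.68, adjusted p = 0.00281). UBE2C, a ubiquitin-conjugating enzyme that works with the anaphase-promoting complex, ranged from 9.96 to 11.81 in sham and from 6.49 to 8.84 in treated animals and changed by -3.35 ± 0.55, adjusted p = 0.000348. DLGAP5, a spindle protein, ranged from 7.37 to 8.72 in sham and from 3.44 to 6.22 in treated animals and changed by -3.58 ± 0.63, adjusted p = 0.000829. CENPF, a kinetochore protein, ranged from 7.55 to 8.95 in sham and from 3.17 to 6.44 in treated animals and changed by -3.42 ± 0.62, adjusted p = 0.00107. NEK2, a centrosome kinase outside the list, had values of 7.12, 8.57, 8.58 and 8.61 in sham A to D and 4.09, 5.74, 4.81 and 2.53 in treated A to D. NEK2 did not overlap and changed by -3.93 ± 0.60, adjusted p = 0.000183, and its other 2 probe sets changed by -1.28 and -1.22.

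The fall of the mitosis genes did not rest on 1 animal. Of the 29 called members, 22 were called in every fit that left out 1 array, and the count stayed between 23 and 28 in those fits. Without treated A and treated B together it was 28. The 22 included the kinases AURKB (-2.44 ± 0.52, adjusted p = 0.0052) and PLK1 (-1.71 ± 0.34, adjusted p = 0.00287), the anaphase activator CDC20 (-2.23 ± 0.47, adjusted p = 0.00483) and securin, PTTG1 (-3.099 ± 0.48, adjusted p = 0.000206). They also included 2 transcription factors of the cycle, MYBL2 (-1.72 ± 0.32, adjusted p = 0.0017) and FOXM1 (-2.52 ± 0.50, adjusted p = 0.0028). FOXM1 had means of 5.489 in sham and 2.966 in treated animals, both below the lower quartile of every array, so its fold is uncertain. CDK2, the kinase of the start of DNA synthesis, changed by -1.29 ± 0.24, adjusted p = 0.00168. NDC80 changed by -2.49 ± 0.71, adjusted p = 0.0404, a call lost on leaving out any 1 sham animal or treated A, C or D (adjusted p = 0.0506 to 0.117). Of the 18 uncalled members, CDC25C (0.14) and NIFK (0.01) were the only ones with a positive change, and CCNA2, cyclin A2, changed by -0.36. MKI67 was not analysed here, since no probe set carried that symbol alone. The score of the 47 genes was 0.40, 1.20, 0.93 and 0.66 in sham A to D and -0.74, -0.17, -0.98 and -1.29 in treated A to D. The groups did not overlap in this score, and treated B was the closest to sham.

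Some repair genes that work with replication were lower too. Of 11 measured DNA repair genes, 4 were called lower (3.3% of all genes), and 3 of the 4 were called in every fit that left out 1 array. FANCA, of the Fanconi core complex that repairs crosslinks, had values of 8.22, 8.38, 7.49 and 8.396 in sham A to D and 5.32, 6.09, 5.75 and 6.29 in treated A to D. Its groups did not overlap, and FANCA had the smallest adjusted p of the genes named here (-2.26 ± 0.25, adjusted p = 5.8e-06). FANCD2, which the core complex modifies, ranged from 9.22 to 9.98 in sham and from 6.41 to 8.17 in treated animals and changed by -2.19 ± 0.34, adjusted p = 0.000216. RAD54L, of homologous recombination, ranged from 7.85 to 8.23 in sham and from 5.68 to 6.28 in treated animals and changed by -1.98 ± 0.27, adjusted p = 4.9e-05, with -0.42 in its second probe set. BRCA1, at -0.86, and CHEK1, at -0.79, did not pass, and ATM, the kinase of strand breaks, was at 0.08.

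Genes known to respond to estrogen did not move as 1 group. Of 27 measured members, 5 were called lower and 0 higher, against 3.3% and 0.896% of all genes, and the median of the 27 was 0.05, or -0.18 with dim probe sets left out. At an unadjusted p under 0.05, 6 were lower and 0 higher (11.6% and 7.41% of all genes). AREG, amphiregulin, the EGF receptor ligand of duct growth, had values of 11.15, 11.24, 10.24 and 11.02 in sham A to D and 5.99, 8.25, 6.44 and 7.18 in treated A to D. Every treated animal was below every sham animal, and treated B was the highest of the treated. The change of AREG was -3.95 ± 0.54, adjusted p = 4.9e-05, and it was -4.10 without treated A and B. PGR, the progesterone receptor, itself a target of the estrogen receptor, had values of 7.84, 8.19, 7.66 and 6.71 in sham A to D and 5.15, 6.49, 5.21 and 4.103 in treated A to D. The groups did not overlap, though sham D and treated B lay close to each other. PGR fell by an estimated 5.13-fold (-2.36 ± 0.53, adjusted p = 0.00811), with a treated mean of 5.239 below the lower quartile of the arrays. LTF, lactoferrin, an iron-binding milk protein, had values of 10.801, 10.03, 10.87 and 9.97 in sham A to D and 6.07, 8.85, 7.36 and 9.18 in treated A to D. LTF did not overlap either and changed by -2.55 ± 0.58, adjusted p = 0.00851, a call lost without treated A (adjusted p = 0.0525). OVGP1, an oviductal glycoprotein, ranged from 7.61 to 8.38 in sham and from 5.67 to 7.12 in treated animals and changed by -1.66 ± 0.46, adjusted p = 0.0355, a call lost without sham A, C or D or treated A or C (adjusted p = 0.0619 to 0.134). FHL2, a coactivator with LIM domains, changed by -1.11 ± 0.24, adjusted p = 0.00659 and was called in all 8 fits with 1 array left out. Without treated A and B together FHL2 was not called (-0.72, adjusted p = 0.164). At the other end stood SULT1E1, estrogen sulfotransferase, at 1.65, which did not pass. TCN1, a vitamin B12 binder of secretions outside the list, had values of 10.24, 10.399, 6.001 and 10.34 in sham A to D and 5.26, 7.31, 5.43 and 4.23 in treated A to D. Sham C lay far below the other sham animals and inside the treated range, yet TCN1 was called (-3.68 ± 0.79, adjusted p = 0.0052).

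Few of the other hormone receptors moved. Of 20 measured receptors, 2 were called lower (PGR and PTH1R) and 0 higher, against 3.3% and 0.896% of all genes, and at an unadjusted p under 0.05 the counts were 2 and 3. ESR1, estrogen receptor alpha, had values of 4.37, 4.26, 4.96 and 4.38 in sham A to D and 4.09, 5.05, 4.72 and 4.29 in treated A to D. The ESR1 groups overlapped fully (0.04 ± 0.33, adjusted p = 0.965), at signals below the lower quartile of the arrays, so neither a difference nor its absence is shown. PTH1R, the receptor of parathyroid hormone and its related peptide, ranged from 7.69 to 9.198 in sham and from 6.92 to 7.70 in treated animals and changed by -1.23 ± 0.36, adjusted p = 0.0442, a call lost without sham A, C or D or treated A, C or D (adjusted p = 0.0533 to 0.134). GHR, the growth hormone receptor, had values of 5.62, 7.14, 6.41 and 5.36 in sham A to D and 8.54, 8.02, 7.67 and 6.07 in treated A to D. Treated D lay within the sham range and GHR did not pass (1.44 ± 0.48, adjusted p = 0.0839), but it did without treated D or without sham B (adjusted p = 0.0135 and 0.0481). OXTR, the oxytocin receptor, changed by -0.99 ± 0.50, adjusted p = 0.273. PRLR, the prolactin receptor, was not analysed here. Among 10 genes of progesterone response, AREG was lower and FOXO1 higher, 8 did not pass, and the median was -0.58. At an unadjusted p under 0.05 in limma, 5 of the 10 were lower and 2 higher, against 11.6% and 7.41% of all genes. Of 20 steroid-metabolising enzymes, 0 were called in limma (2 higher and 2 lower at an unadjusted p under 0.05), and HSD11B2, which inactivates cortisol, was at -1.11. These 20 enzymes ranged from -1.11 to 1.65, and limma gave adjusted p above the threshold for each.

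Milk protein genes were lower in 3 treated animals and not in the fourth. CSN2, beta-casein, had values of 10.79, 10.301, 10.88 and 10.98 in sham A to D and 4.16, 11.58, 2.25 and 6.004 in treated A to D. Treated B was above all 4 sham animals, whereas treated A, C and D were far below them. CSN2 was called (-4.74 ± 1.36, adjusted p = 0.0413), a call lost on leaving out any 1 sham animal or treated A, C or D (adjusted p = 0.0533 to 0.183). Without treated B the change was -6.60. CSN3, kappa-casein, had values of 10.61, 9.27, 10.97 and 11.16 in sham A to D and 4.996, 12.26, 4.36 and 6.78 in treated A to D. CSN3 showed the same order of treated animals and did not pass (-3.404 ± 1.46, adjusted p = 0.184), but it did without treated B (adjusted p = 0.0351). PAEP, a lipocalin of milk whey, had values of 12.46, 12.17, 13.104 and 12.66 in sham A to D and 7.45, 12.81, 9.74 and 8.94 in treated A to D. PAEP overlapped through treated B (-2.86 ± 0.79, adjusted p = 0.0328), and its call was lost on leaving out any 1 sham animal or treated A, C or D (adjusted p = 0.0503 to 0.15). LALBA, alpha-lactalbumin of lactose synthesis, had values of 7.77, 6.25, 5.16 and 9.46 in sham A to D and 2.298, 10.78, 2.76 and 3.26 in treated A to D. The sham animals themselves spread widely for LALBA, treated B was above all of them, and it did not pass (-2.38 ± 1.91, adjusted p = 0.534). WAP, whey acidic protein, ranged from 6.02 to 10.08 in sham and from 3.24 to 10.18 in treated animals and did not pass (-2.09 ± 1.51, adjusted p = 0.476). In all, 4 of 25 measured milk and secretion genes were called lower (CSN2, PAEP, LTF and PTHLH) and 0 higher, against 3.3% and 0.896% of all genes. At an unadjusted p under 0.05 the counts were 8 and 2, against 11.6% and 7.41%, so the share that was higher (8.0%) lay near that of all genes. Without treated B the count was 7, and without treated A it was 1 lower and 1 higher. The luminal epithelial score, over 31 genes, was -1.12 in treated A, 0.14 in treated B, 0.22 in treated C and 0.48 in treated D, and -0.18 to 0.41 in sham. Its part in the milk result was not tested.

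PTHLH, parathyroid hormone-related protein, a paracrine signal from epithelium to the surrounding mesenchyme, had values of 11.19, 11.34, 10.53 and 10.75 in sham A to D and 8.01, 8.897, 9.09 and 9.26 in treated A to D. No treated animal reached a sham animal, and treated B was not set apart from the others as it was for the caseins. PTHLH fell 4.41-fold (-2.14 ± 0.36, adjusted p = 0.000502) and was called in each of the 8 fits that left out 1 array. Among 16 genes of prolactin and STAT5 signalling, PTHLH, also counted among the milk and secretion genes, was the only call, against 3.3% of all genes called lower. At an unadjusted p under 0.05 in limma, 3 of the 16 were lower and 1 higher, against 11.6% and 7.41% of all genes. STAT5A, the main transducer of prolactin in the gland, had values of 9.61, 9.205, 10.47 and 9.51 in sham A to D and 9.24, 9.83, 9.72 and 9.57 in treated A to D. These overlapped (-0.102 ± 0.30, adjusted p = 0.898), and its other 2 probe sets gave 0.30 and 0.07. STAT5B, its close relative, overlapped too (-0.23 ± 0.34, adjusted p = 0.769), and a second probe set gave 0.97, so no direction is given for either. JAK2 was at 0.42 and SOCS1, a feedback inhibitor, at -0.49, both uncalled.

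**Figure D3:**
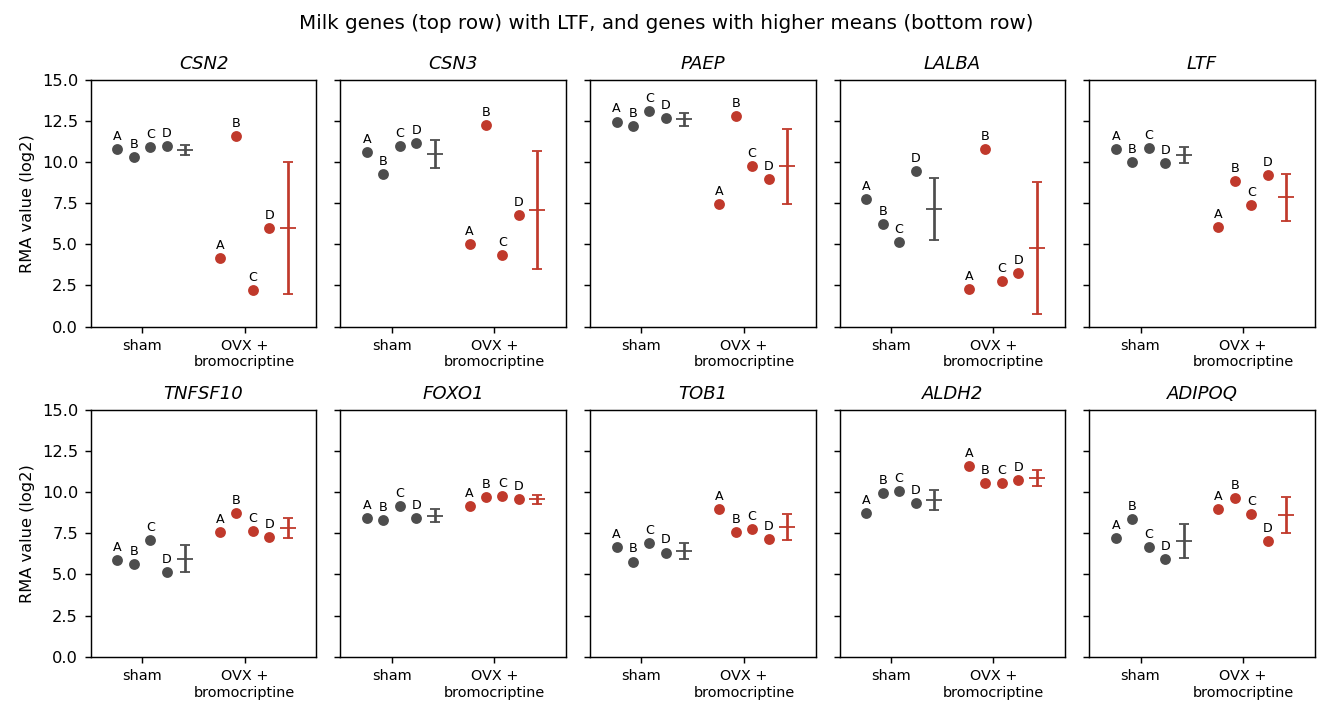
RMA value on the log2 scale (y axis) in each animal (points, with letters) of the sham and the treated group (x axis), with mean and SD (n = 4), for 5 genes of milk (top) and 5 genes whose mean was higher in treated animals (bottom). Treated B lies at 11.6 for CSN2 and at 10.8 for LALBA, above every sham animal, while the treated animals exceed all sham animals for TNFSF10, FOXO1, TOB1 and ALDH2 but not for ADIPOQ.

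Short lists of ligands and receptors of the local growth factor pathways gave 0 to 3 calls each. Over all genes, 3.3% were called lower and 0.896% higher. AREG was the call among 9 EGF family genes, where EGFR changed by 0.45 and TGFA by -0.13. At an unadjusted p under 0.05, 3 of the 9 were higher and 3 lower, against 7.41% and 11.6% of all genes. Of 11 FGF and HGF genes, 0 were called by limma (2 higher and 2 lower at an unadjusted p under 0.05), with a range of -0.87 for FGF13 to 1.13 for KIT. IGF1, the growth factor induced by growth hormone, had values of 8.29, 8.57, 9.27 and 7.77 in sham A to D and 8.94, 9.01, 8.38 and 7.76 in treated A to D. The groups overlapped (0.05 ± 0.27, adjusted p = 0.952), and the sign turned in some fits with an array left out, -0.19 without sham D among them. In the WNT list, 3 of 14 genes were called, 2 higher and 1 lower, a larger share than over all genes. At an unadjusted p under 0.05, 3 were higher and 3 lower (21.4% each). DKK3, a secreted member of the Dickkopf family, ranged from 11.44 to 11.94 in sham and from 10.53 to 11.16 in treated animals and was lower (-0.69 ± 0.19, adjusted p = 0.0319), a call lost without sham A or B or treated A or C (adjusted p = 0.0502 to 0.133). The receptor FZD4 had values of 9.13, 10.05, 10.78 and 8.501 in sham A to D and 11.51, 11.37, 11.21 and 10.31 in treated A to D. Sham C lay inside the treated range. FZD4 was called higher (1.49 ± 0.41, adjusted p = 0.032), a call lost without sham A or D or treated A, B or C (adjusted p = 0.0811 to 0.174). FZD5, another WNT receptor, had values of 2.53, 3.16, 3.95 and 2.301 in sham A to D and 5.42, 4.83, 5.09 and 4.84 in treated A to D. FZD5 did not overlap and kept its call in all 8 fits (2.06 ± 0.42, adjusted p = 0.00388), although both groups were below the lower quartile of the arrays. TGFB3 was the call among 22 genes of TGF-beta and BMP signalling (-0.81 ± 0.19, adjusted p = 0.0126), and it was lost without treated A (adjusted p = 0.0641). HEY2, a transcriptional repressor induced by Notch, ranged from 9.83 to 10.39 in sham and from 7.98 to 9.02 in treated animals without overlap. HEY2 changed by -1.43 ± 0.28, adjusted p = 0.00281 and was called in all 8 fits, while NOTCH4 (-0.05), JAG1 (0.05), DLL4 (0.15) and HES1 (0.61) did not pass.

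In the extracellular matrix a few proteoglycans and glycoproteins were lower, and no collagen of the list was called. Of 37 fibroblast and matrix genes, 4 were called lower and 0 higher (3.3% and 0.896% of all genes), with a median of -0.19, and 7 lower and 0 higher at an unadjusted p under 0.05. HAPLN1, the link protein that fastens proteoglycans to hyaluronan, had values of 9.23, 9.199, 7.75 and 9.27 in sham A to D and 3.56, 4.49, 3.59 and 3.96 in treated A to D. This was the largest fall of all genes, with a wide gap between the groups and sham C the lowest of its group (-4.96 ± 0.69, adjusted p = 4.9e-05). TNC, tenascin C, a glycoprotein of growing and remodelling stroma, had values of 10.17, 11.398, 11.31 and 10.73 in sham A to D and 7.86, 8.75, 7.74 and 8.697 in treated A to D. TNC did not overlap and fell 6.25-fold (-2.64 ± 0.50, adjusted p = 0.00195). The proteoglycan BGN, biglycan, ranged from 10.91 to 11.68 in sham and from 9.27 to 10.49 in treated animals and changed by -1.29 ± 0.26, adjusted p = 0.00371. VCAN, versican, which binds hyaluronan, ranged from 10.76 to 11.47 in sham and from 8.79 to 10.73 in treated animals and changed by -1.196 ± 0.30, adjusted p = 0.0203, a call lost without sham B or treated C or D (adjusted p = 0.0549 to 0.0732). Its other probe sets gave -1.20 and -2.08, both called, and -0.91 and -0.64, both uncalled. HAPLN1, TNC and BGN were called with any 1 array left out. Collagens did not pass: COL1A2 was at -0.57, COL3A1 at -0.36 and COL5A1 at -0.19. Among 26 matrix-processing enzymes, 3 were called lower and 1 higher, against 3.3% and 0.896% of all genes. At an unadjusted p under 0.05, 9 were lower and 3 higher (34.6% and 11.5%), against 11.6% and 7.41% of all genes. LOXL1, which crosslinks elastin, had values of 11.78, 11.304, 11.72 and 11.75 in sham A to D and 9.85, 10.56, 10.26 and 10.47 in treated A to D. LOXL1 did not overlap (-1.35 ± 0.21, adjusted p = 0.000253), nor did TIMP1, an inhibitor of metalloproteinases (-1.13 ± 0.23, adjusted p = 0.00295). Both kept their calls in all 8 fits. ADAMTS1, a protease that cuts versican, was lower (-1.11 ± 0.28, adjusted p = 0.0215), a call lost without sham A or D or treated C (adjusted p = 0.0589 to 0.103). A second ADAMTS1 probe set gave -0.30 and was not called (adjusted p = 0.732), so the fall rests on 1 probe set. CTSK, a collagen-degrading cathepsin, was the member called higher (0.68 ± 0.19, adjusted p = 0.0315), a call lost without sham A or D or treated B, C or D (adjusted p = 0.0565 to 0.102).

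Some contractile genes shared by myoepithelial cells and the smooth muscle of vessels were lower by small amounts. Of 19 measured members, 4 were called lower and 0 higher, against 3.3% and 0.896% of all genes, or 5 and 0 at an unadjusted p under 0.05 (11.6% and 7.41% of all genes). ACTA2, smooth muscle actin, had values of 11.998, 12.18, 12.33 and 11.87 in sham A to D and 10.62, 11.78, 11.25 and 11.898 in treated A to D. Treated D lay at the sham values, and ACTA2 changed by -0.71 ± 0.18, adjusted p = 0.0201, a call lost without sham B or treated A or C (adjusted p = 0.0514 to 0.105). The others were SMTN (-1.05 ± 0.31, adjusted p = 0.0446), CNN1 (-1.003 ± 0.27, adjusted p = 0.0283) and TAGLN (-0.83 ± 0.24, adjusted p = 0.0449), which encode smoothelin, calponin and transgelin. Each was lost in some fits: SMTN without sham A or D or treated A, B or C (adjusted p = 0.0565 to 0.17), CNN1 without sham A, C or D or treated B or C (adjusted p = 0.0618 to 0.0897) and TAGLN without sham A, C or D or treated A, B or C (adjusted p = 0.0717 to 0.182). Without treated C, or without treated A and B, 0 of the 19 were called by limma. The basal keratin KRT14 was not analysed here.

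Markers of the luminal epithelium were not called. With 31 measured genes, 0 passed in limma, and 4 were lower and 2 higher at an unadjusted p under 0.05. Their median was -0.31 with all arrays and 0.04 without treated A, so the direction depended on that animal. KRT18, a luminal keratin, had values of 11.96, 11.304, 11.45 and 11.72 in sham A to D and 9.43, 11.12, 10.699 and 11.35 in treated A to D. Treated A was the lowest of the 8, and KRT18 did not pass (-0.96 ± 0.31, adjusted p = 0.0688), though it did without treated D (adjusted p = 0.0228). KRT8 did not pass (-0.56 ± 0.21, adjusted p = 0.124) and did so without treated D (adjusted p = 0.0432). The mitosis score of treated D, -1.29, was the lowest of all 8 animals while its luminal score, 0.48, was the highest, and the part of epithelial content in the cell division result was not tested. Endothelial (23 genes, median 0.24), lymphocyte (22, -0.20) and interferon-induced genes (22, -0.09) had 0 calls in limma. At an unadjusted p under 0.05, 1 gene of each of these 3 lists was higher, and 0, 1 and 2 were lower. Of 31 macrophage and myeloid genes, CCL2, a monocyte chemoattractant, was the only call, and it was lower. That share is near the 3.3% of all genes called lower, and 2 members were lower and 1 higher at an unadjusted p under 0.05. CCL2 ranged from 11.37 to 12.21 in sham and from 10.56 to 11.12 in treated animals with a change of -1.08 ± 0.24, adjusted p = 0.00613, and it was called in all 8 fits. Skeletal muscle genes had a median of 1.74 with all arrays and of -0.12 without treated A, and 0 of 29 were called in limma (2 higher and 0 lower at an unadjusted p under 0.05).

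**Figure D4:**
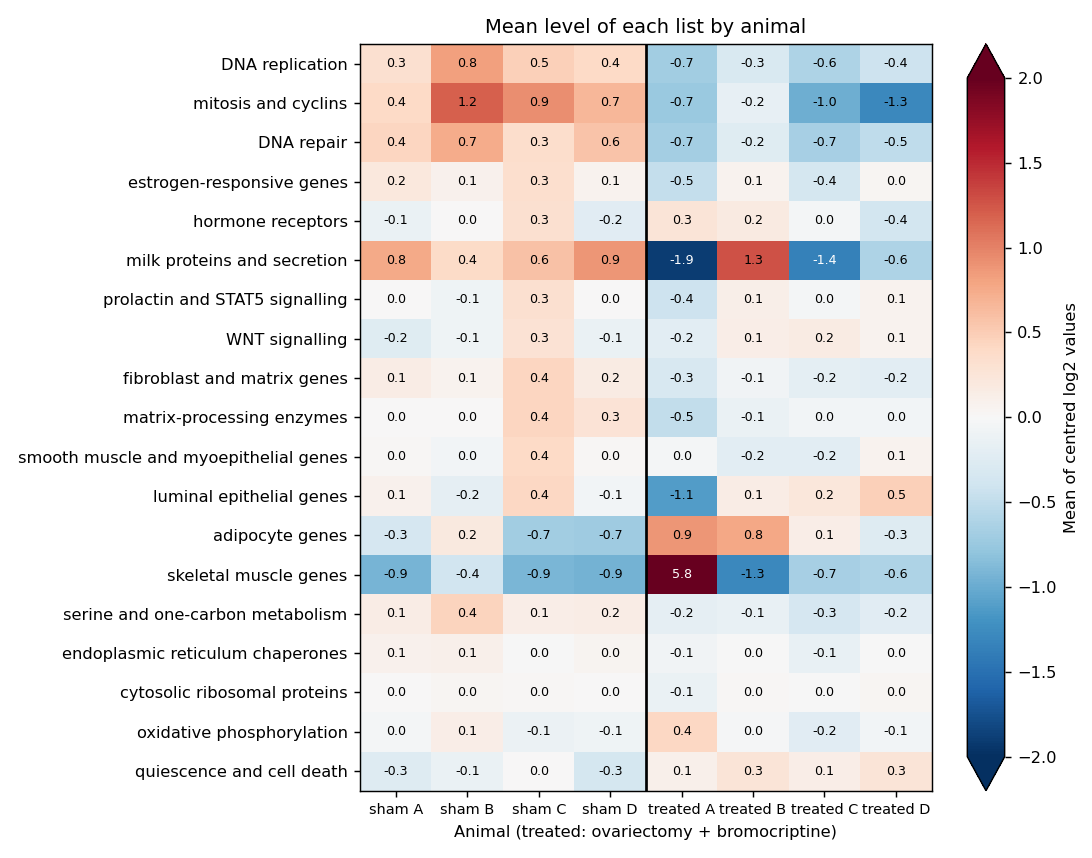
Score of 19 gene lists (rows) in each of the 8 animals (columns), printed in the cells and coloured: a score is the mean of log2 values after each gene was centred on the 8 arrays. Replication, mitosis and repair scores are positive in every sham and negative in every treated animal, while treated A stands out in skeletal muscle genes (5.8) and treated B in milk genes (1.3).

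Adipocyte genes had higher means in the treated animals without a call. Of 19 measured members, 18 had a positive change, against 2914 of all 6360 genes, and the median was 0.74. In limma 0 passed, and at an unadjusted p under 0.05, 7 were higher and 0 lower, against 7.41% and 11.6% of all genes. ADIPOQ, adiponectin, had values of 7.21, 8.35, 6.69 and 5.93 in sham A to D and 8.96, 9.67, 8.69 and 7.06 in treated A to D. Treated D lay within the sham range, and ADIPOQ did not pass (1.55 ± 0.58, adjusted p = 0.121), but it did without treated D (adjusted p = 0.0322). LEP, leptin, was at 1.62, GPD1, which makes the glycerol backbone of fat, at 1.69 and FABP4, a fatty acid carrier, at 0.09. The median of the list was 0.42 without treated A and 0.29 without treated A and B. Adipocyte scores ran from -0.70 to 0.20 in sham and from -0.25 to 0.88 in treated animals, highest in treated A. Of 30 genes of fatty acid and triglyceride metabolism, 22 had a positive change, against 2914 of all 6360 genes. In this list 1 gene was called, near the 3.3% of all genes called lower. That gene, CPT1A, works in the opposite direction to synthesis, carrying fatty acids to oxidation, and was lower (-0.77 ± 0.22, adjusted p = 0.036), a call lost on leaving out any 1 sham animal or treated A, B or D (adjusted p = 0.0506 to 0.103). Of 13 cholesterol genes, TM7SF2, a sterol reductase, was called lower (-1.13 ± 0.30, adjusted p = 0.0293), a call lost without sham A, C or D or treated A (adjusted p = 0.0624 to 0.144). A negative change was seen in 11 of the 13, against 3445 of all 6360 genes.

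Several enzymes that supply proline, polyamines, pyrimidines and one-carbon units were lower. Of 27 measured genes, 8 were called lower and 0 higher, against 3.3% and 0.896% of all genes, with a median of -0.27, or 12 and 1 at an unadjusted p under 0.05. The 8 included TYMS, given above with the replication genes, so this count is not separate from that result. PYCR1, which makes proline in mitochondria, had values of 10.88, 10.33, 10.38 and 10.84 in sham A to D and 9.23, 9.38, 8.63 and 9.51 in treated A to D. PYCR1 did not overlap and changed by -1.42 ± 0.26, adjusted p = 0.00114. ODC1, ornithine decarboxylase, the entry to polyamine synthesis, had values of 10.71, 10.91, 11.07 and 11.15 in sham A to D and 9.34, 9.81, 9.19 and 9.92 in treated A to D. ODC1 did not overlap and changed by -1.39 ± 0.29, adjusted p = 0.00388. MTHFD1L, of the mitochondrial folate pathway, changed by -1.34 ± 0.24, adjusted p = 0.00107, and these 3 genes were called in all 8 fits. CTPS1, CTP synthase, ranged from 7.63 to 8.91 in sham and from 6.59 to 7.29 in treated animals and changed by -1.39 ± 0.32, adjusted p = 0.00987, a call lost without sham D (adjusted p = 0.0584). SRM, spermidine synthase, changed by -1.21 ± 0.33, adjusted p = 0.03, a call lost without sham A or D or treated A, B or C (adjusted p = 0.0598 to 0.139). ALDH18A1, which feeds proline synthesis, changed by -0.69 ± 0.16, adjusted p = 0.00962, a call lost without treated C (adjusted p = 0.0551). MTHFD1 changed by -0.77 ± 0.22, adjusted p = 0.045. Its call was lost on leaving out any 1 sham animal or treated A, B or C (adjusted p = 0.05145 to 0.168), and its other probe sets, at -0.32 and -0.11, were not called. The serine enzymes PHGDH (-0.61), PSAT1 (0.37) and PSPH (0.27) did not pass. The count of 8 became 4 without treated C, 5 without treated A or sham D and 4 without treated A and B. SLC7A1, an importer of arginine and lysine, was the call among 34 solute carriers (-0.73 ± 0.21, adjusted p = 0.0401), and it was lost without sham A, B or D or treated A, B or C (adjusted p = 0.0569 to 0.185).

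The protein-making machinery showed little. Of 56 translation and ribosome assembly genes, FBL, the nucleolar methyltransferase fibrillarin (-0.796 ± 0.20, adjusted p = 0.0219), and WDR12, of ribosome assembly (-0.76 ± 0.19, adjusted p = 0.0202), were called lower, a share near the 3.3% of all genes. FBL was lost without sham D or treated A, B or C (adjusted p = 0.0558 to 0.0889), and WDR12 without sham A or D or treated B or C (adjusted p = 0.053 to 0.101). Of 41 genes of the endoplasmic reticulum, 3 were called lower, against the same 3.3%: CRELD2 (-1.08 ± 0.31, adjusted p = 0.045), HYOU1 (-0.78 ± 0.21, adjusted p = 0.0312) and SSR4 (-0.46 ± 0.13, adjusted p = 0.0313). CRELD2 was lost without sham A, B or D or treated A, B or C (adjusted p = 0.0588 to 0.182), HYOU1 without sham A or D or treated A, B or C (adjusted p = 0.0665 to 0.117) and SSR4 without sham B or D or treated A or C (adjusted p = 0.0724 to 0.123). The 60 ribosomal proteins (median -0.03), 58 genes of oxidative phosphorylation (0.04) and 35 of the proteasome (-0.06) had 0 calls in limma. At an unadjusted p under 0.05, 0 genes of these 3 lists were higher, and 1, 0 and 4 were lower. The ribosomal proteins ranged from -0.75 for RPL37 to 0.17 for RPL36AL.

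**Figure D5:**
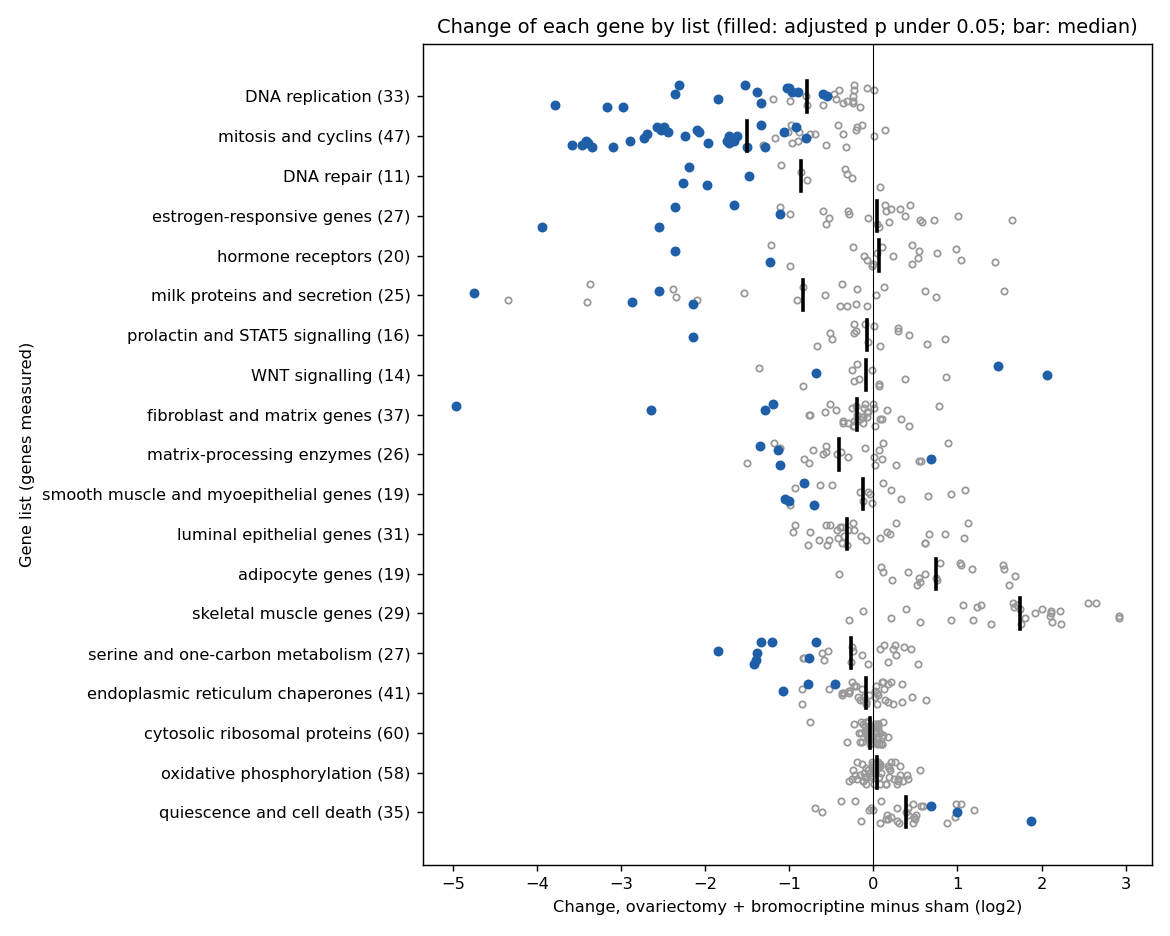
Change of each measured gene between treated and sham animals on the log2 scale (x axis) for 19 lists (y axis, with the number of genes), where filled blue points passed the adjusted p of 0.05, open points did not, and the black bar is the list's median. The calls of the mitosis and replication lists all lie left of 0, with medians of -1.51 and -0.79, and the ribosomal proteins lie close to 0.

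Genes tied to growth arrest and cell death had higher means, and their calls were fragile. Of 35 measured members, 27 had a positive change (median 0.39), against 2914 of all 6360 genes, and 3 were called higher, against 0.896% of all genes. At an unadjusted p under 0.05, 10 were higher and 3 lower (7.41% and 11.6% of all genes). TNFSF10, the death ligand TRAIL, had values of 5.88, 5.65, 7.09 and 5.17 in sham A to D and 7.602, 8.75, 7.66 and 7.29 in treated A to D. The groups did not overlap, and sham C was the highest sham animal. TNFSF10 was called (1.88 ± 0.52, adjusted p = 0.0353), a call lost without sham A, B or D or treated A, B or C (adjusted p = 0.0572 to 0.146). FOXO1, a transcription factor that growth factor signalling keeps out of the nucleus, had values of 8.42, 8.305, 9.17 and 8.41 in sham A to D and 9.19, 9.696, 9.77 and 9.605 in treated A to D. FOXO1 was at a nearly common level in sham A, B and D, with sham C just below the lowest treated animal (0.99 ± 0.26, adjusted p = 0.0267). The call was lost without sham A, B or D or treated B or C (adjusted p = 0.0697 to 0.09). TSC22D3, a leucine zipper protein induced by glucocorticoids, changed by 0.68 ± 0.19, adjusted p = 0.0343, a call lost on leaving out sham A, B or D or any 1 treated animal (adjusted p = 0.0533 to 0.142). The count of 3 became 0 without sham A, B or D and without treated B or C, 1 without treated A, and 6 without sham C. The cell cycle inhibitors CDKN1A (0.29) and CDKN1B (0.49) did not pass. In 16 glucocorticoid-responsive genes TSC22D3 was called higher and MT1A, a metallothionein, lower, against 0.896% and 3.3% of all genes. At an unadjusted p under 0.05, 5 of the 16 were higher and 1 lower (31.2% and 6.25%). Every treated animal was above every sham animal in 5 of the 16 and below in 2, against 2.91% and 6.71% of all genes. MT1A ranged from 7.16 to 8.898 in sham and from 4.55 to 6.38 in treated animals without overlap, changed by -2.35 ± 0.48, adjusted p = 0.00388 and was called in all 8 fits. MAP1LC3B, of autophagosomes, was called higher (0.76 ± 0.21, adjusted p = 0.0333) among 27 involution and lysosomal genes. A second probe set of MAP1LC3B gave -0.09, and the call was lost on leaving out any 1 sham animal or treated A, C or D (adjusted p = 0.0544 to 0.102).

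The largest rises were smaller than the largest falls and came from genes of varied function. SLU7, a splicing factor, had values of 7.93, 7.801, 9.18 and 7.92 in sham A to D and 9.47, 10.28, 9.97 and 9.49 in treated A to D. The groups did not overlap, sham C was the closest sham animal, and the call held in all 8 fits (1.595 ± 0.37, adjusted p = 0.011). It was lost without treated A and B together (adjusted p = 0.0967). A second SLU7 probe set gave 0.48. SF1, another splicing factor, ranged from 5.32 to 8.802 in sham and from 8.57 to 10.09 in treated animals and changed by 1.98 ± 0.55, adjusted p = 0.0345, a call lost without sham A or D or treated B or C (adjusted p = 0.078 to 0.205). KNG1, kininogen, had values of 5.40, 5.21, 5.76 and 5.52 in sham A to D and 5.76, 7.31, 8.29 and 8.38 in treated A to D. Treated A lay just above the highest sham animal and the other 3 well above it (1.96 ± 0.55, adjusted p = 0.035), and the call was lost without sham A, B or D or treated B, C or D (adjusted p = 0.0639 to 0.129). The dimmer KNG1 probe sets rose more, by 2.97 and 3.17 (adjusted p = 0.0101 and 0.00205). TOB1, an antiproliferative protein, ranged from 5.79 to 6.89 in sham and from 7.16 to 8.99 in treated animals and changed by 1.45 ± 0.40, adjusted p = 0.0343, a call lost without sham A, B or D or treated A or C (adjusted p = 0.0573 to 0.153). ALDH2, the aldehyde dehydrogenase of mitochondria, ranged from 8.74 to 10.05 in sham and from 10.53 to 11.59 in treated animals and changed by 1.32 ± 0.36, adjusted p = 0.0315, a call lost without sham A or D or treated A (adjusted p = 0.0981 to 0.137). ANPEP, aminopeptidase N (1.58 ± 0.46, adjusted p = 0.0461), and PKP4, of cell junctions (1.55 ± 0.42, adjusted p = 0.0312), overlapped with sham through sham C. ANPEP was lost without sham A, B or D or treated B, C or D (adjusted p = 0.0713 to 0.166), and PKP4 without sham A, B or D or treated B or C (adjusted p = 0.0794 to 0.134). The other named rises were the calcium channel RYR2 (1.31 ± 0.39, adjusted p = 0.0467), the lysosomal transporter SLC46A3 (1.304 ± 0.35, adjusted p = 0.0267) and MITF (1.24 ± 0.32, adjusted p = 0.0219). RYR2 was lost on leaving out any 1 of the 8 arrays (adjusted p = 0.0545 to 0.147), SLC46A3 without sham A, B or C or treated B or C (adjusted p = 0.0551 to 0.0973) and MITF without sham A, B or D or treated B or C (adjusted p = 0.0586 to 0.12). MITF is a transcription factor of pigment cells and other lineages, and the score of 9 melanocyte genes was -1.10 and -0.84 in sham A and B against 1.702 and 0.80 in sham C and D. In treated animals that score ran from -0.39 to 0.15, and its part in the result was not tested.

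Sham C stood out in the genes called higher. It was the highest sham animal in 40 of the 57, against 2369 of all 6360 genes (37.2%), and the highest in 70 of the 210 genes called lower. Red cell, nerve, skin, complement and immediate early genes had 0 calls in limma: 6, 8, 5, 24 and 20 genes with medians of 0.22, 0.05, -0.37, -0.07 and -0.03. At an unadjusted p under 0.05, 0, 1, 0, 2 and 2 of them were higher and 0, 0, 1, 2 and 5 lower.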

How the data were processed

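Total RNA of mammary gland from 36 pigs was hybridized as biotin-labelled cRNA to porcine Affymetrix arrays, 1 array per animal. The authors deposited expression values for 20792 probe sets, normalized with RMA per the submitters' processing notes, and these were read here as log2. RMA corrects background, equalizes array distributions and summarizes probes, which can hide a shift common to all genes. The software, the version of RMA and the log base are not stated in the labels. Values ran from 1.552 to 13.74, a range from which log2 was inferred, and each fold depends on it. The arrays' number limits the precision.

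The values were used as deposited. Of the probe sets, 9149 carried 1 gene symbol, 178 several and 11465 none here. The 6360 genes were each represented by the probe set of highest mean over all arrays. All 36 arrays entered 1 linear model of the 9 group means, which left 27 residual degrees of freedom, with limma 3.58.1 in R 4.3.3 and statmod 1.5.0. The contrast of ovariectomy with bromocriptine minus sham was moderated by eBayes (4.16 prior degrees of freedom). Two-sided p-values received the Benjamini-Hochberg adjustment across the 20792 probe sets. The fit was tested on simulated data. Members of 43 gene lists were counted, with no set test, and 60 genes were in more than 1 list. Named genes were the 12 largest called rises and falls, up to 4 called members of each list and 21 fixed genes, of which 18 were measured. Other genes named are further called members, uncalled members given as values, and 15 genes outside the lists, chosen after their values were seen. The comparison and the lists were chosen with earlier results of these data known.

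The alternatives were dim probe sets left out, a second quantile normalization, median centring, robust moderation with a variance trend, weighting of arrays, a block for the letter (fixed or random), the 8 arrays alone, 1 probe set per gene, each array left out, and treated A and B left out together. Where only 3 animals remained in a group, they were assumed to vary like those of the other groups. Promoter motifs, sequences and genome positions were not analysed here. A called member of the DNA repair list is not reported here. Figures and counts used Python 3.11.15, pandas 2.3.3 and matplotlib 3.10.9.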

Additional observations from a re-analysis of the deposited data

Results flagged for a closer look

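In 27 of 356 groups of 4 animals, taken over the named genes and the list scores, the highest or lowest animal lay apart from the other 3 by a wide margin of the range (Dixon's criterion). Chance gives about 1 in 20 such groups. Causes were not tested.

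Treated A was apart in 7. Its skeletal muscle score was 5.755, against -1.296 to -0.624 in the other treated animals, and its glucocorticoid-responsive score was -0.128, against 0.120 to 0.135. It was the lowest treated animal for KRT8 (11.316, against 12.533 to 12.775), DKK3 (10.527, against 11.075 to 11.155), CTSK (11.486, against 12.168 to 12.248) and TM7SF2 (8.090, against 9.327 to 9.478). It was the highest for PPARGC1A (7.084, against 6.091 to 6.235), a coactivator of mitochondrial genes. Without treated A, the calls of DKK3, TM7SF2 and PPARGC1A were lost, with adjusted p of 0.1275 to 0.1438.

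Treated B had LALBA at 10.783, against 2.298 to 3.262 in the other treated animals, and MAP1LC3B at 10.418, against 11.07 to 11.10. Treated C was the lowest for BGN (9.274, against 10.383 to 10.491) and MTHFD1 (9.165, against 9.726 to 9.781). Treated D was the lowest for PCNA (9.554, against 9.862 to 9.889) and KIFC1 (6.728, against 7.184 to 7.252).

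Sham C was apart in 5 genes. It was low for HAPLN1 (7.748, against 9.199 to 9.269) and TCN1 (6.001, against 10.235 to 10.399), and high for SLU7 (9.178, against 7.801 to 7.934), PKP4 (9.688, against 7.837 to 8.030) and FOXO1 (9.168, against 8.305 to 8.420). Sham B was low for TGFB3 (8.311, against 8.961 to 9.091), LOXL1 (11.304, against 11.72 to 11.777) and TNFRSF12A (9.793, against 10.483 to 10.62), and high for SKA1 (7.657, against 5.954 to 6.165). Its scores were high for skeletal muscle (-0.382, against -0.938 to -0.919) and for serine and one-carbon metabolism (0.448, against 0.137 to 0.151). Sham A was low for NEK2 (7.122, against 8.568 to 8.610) and high in the interferon score (0.492, against -0.135 to -0.042). Sham D was low in the progesterone-responsive score (0.051, against 0.390 to 0.455).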

How the results depend on the processing

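The direction of the balance depended on the setting, and it turned with array weights and without sham C (672 higher, 570 lower). With array weights, 1534 probe sets were called higher and 1175 lower, and with the 8 arrays alone 44 and 205. With 1 probe set per gene the counts were 65 and 234 of 6360, and without treated A and B 79 and 265. Leaving out 1 array gave 81 to 672 higher and 342 to 724 lower. Dim probe sets left out, a second quantile normalization, median centring, and a variance trend gave 268 to 328 higher and 499 to 570 lower, each within 1.5 times of 325 and 545. The 15 replication genes called lower became 8 with the 8 arrays alone, 8 without treated A and B and 6 to 14 with 1 array left out. The 29 mitosis genes ranged from 21 with the 8 arrays alone to 33 with array weights. A replicate block for the letter gave 355 higher and 558 lower as a fixed term, and 362 and 578 as a random term. The letters were not taken as pairs because the labels state no link. Correlations of the deviations from the group means were 0.05, 0.08, 0.17 and 0.29 for same-lettered animals A to D. Between differently lettered animals they ran from -0.284 to 0.214, with D and D the highest of all, so these values do not exclude a link.

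Over 2422 combinations of a named gene and an alternative, the direction turned in 11, in ESR1, IGF1 and STAT5A, none of which was called. ESR1 ranged from -0.13 without treated B to 0.20 without sham C. IGF1 ranged from -0.19 without sham D to 0.31 without sham C, and was -0.41 without treated A and B. STAT5A ranged from -0.27 without sham B to 0.16 without sham C, and was 0.11 with array weights. Some genes called in all 8 fits with 1 array left out were not called in limma without treated A and B together. These were FHL2, RRM2B, SPAG5, SLU7, CCL2, TIMP1, MT1A and DNMT1 (adjusted p = 0.0573 to 0.2275). Calls were lost in 400 combinations and gained in 9, and 2002 kept direction and side of the threshold. The cause was not tested. Mean signals of both groups below the lower quartile of every array, as in FZD5, FOXM1 and SLC46A3, or of 1 group, limit the folds: both were below it in 8 genes called lower and 5 called higher. With 4 animals a group, a value that did not pass is not shown to be equal.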

Other observations

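Several further cell division genes outside the lists were called lower, and they were chosen after their values were seen. PIMREG, a mitotic regulator, had values of 7.71, 8.75, 8.85 and 8.17 in sham A to D and 5.62, 5.64, 4.36 and 4.47 in treated A to D. The groups did not overlap (-3.35 ± 0.40, adjusted p = 9.84e-06). CENPT, of the kinetochore (-3.18 ± 0.44, adjusted p = 4.9e-05), TCF19, a factor of late G1 (-2.46 ± 0.35, adjusted p = 5.18e-05), and IQGAP3 (-2.09 ± 0.33, adjusted p = 0.00025) were lower without overlap. So were the spindle motor KIFC1 (-1.99 ± 0.37, adjusted p = 0.00131), the kinase PKMYT1, which holds back entry into mitosis (-1.78 ± 0.28, adjusted p = 0.000216), and SPAG5, of the spindle (-1.67 ± 0.38, adjusted p = 0.0084). All 7 were called in every fit that left out 1 array. EZH2, the methyltransferase of histone H3, changed by -1.45 ± 0.35, adjusted p = 0.0127, a call lost without treated A (adjusted p = 0.0534).

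Further genes outside the lists were likewise chosen after their values were seen. PTN, the secreted growth factor pleiotrophin, had values of 9.87, 10.78, 10.93 and 9.45 in sham A to D and 8.05, 9.06, 8.14 and 7.14 in treated A to D. Treated animals lay below all sham animals (-2.16 ± 0.45, adjusted p = 0.00454), in all 8 fits with 1 array left out. MDK, the related factor midkine, changed by -1.02 ± 0.26, adjusted p = 0.0226, a call lost without sham C or treated A (adjusted p = 0.0728 to 0.123). TNFRSF12A, the receptor of the cytokine TWEAK, ranged from 9.79 to 10.62 in sham and from 8.496 to 9.31 in treated animals and changed by -1.58 ± 0.25, adjusted p = 0.000287. RRM2B, the ribonucleotide reductase subunit used outside S phase, moved opposite to RRM2: it had values of 7.53, 7.54, 7.503 and 7.39 in sham A to D and 9.43, 8.83, 8.33 and 8.14 in treated A to D. The RRM2B groups did not overlap (1.19 ± 0.26, adjusted p = 0.00582), and the call held in all 8 fits. It was lost without treated A and B together (0.74, adjusted p = 0.2275). Of 2 partners of MAX in the MYC network, MXD3 was lower (-1.52 ± 0.26, adjusted p = 0.000714) in all 8 fits. MXI1 was higher (0.76 ± 0.20, adjusted p = 0.029), a call lost without sham A, B or D or treated B or C (adjusted p = 0.0596 to 0.103). The PPARGC1A call (1.23 ± 0.34, adjusted p = 0.0333) was lost without sham A, B or D or treated A or C (adjusted p = 0.0601 to 0.128).

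Probe sets with 1 gene symbol made up 116 of the 325 called higher (35.7%) and 266 of the 545 called lower (48.8%), against 44.0% of all probe sets. The median over probe sets of the mean of 36 arrays was 7.22 for those called higher, 7.88 for those called lower and 7.87 for all.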
